A study of Mus musculus with 2 samples.

Results

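Broad RNA polymerase II (RNA Pol II) anchors are the widest places in the contact map of control embryonic stem cells (ESCs). An anchor is a peak of RNA Pol II that at least 1 paired-end tag (PET) links to another peak, and every distinct peak interval among the pairs of the control library was taken as 1 anchor. The members were chosen by their width in the control library, at least 30 kb, which gave 861 of 27757 control anchors (3.10%). Widths and control values are therefore given below as a description. PETs of the Ronin knockout library were summed at the knockout anchors that overlapped a broad control anchor by at least 1 bp.

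The study compared mouse ESCs with and without Ronin by ChIA-PET, which maps chromatin contacts from paired-end tags, with an antibody against RNA Pol II. Both groups were ESCs from blastocysts of CreERT2; Ronin flox/flox crosses, so the control cells carried the floxed Ronin alleles and the inducible Cre as well. Ronin knockout ESCs were given tamoxifen for 4 days and control ESCs ethanol for 4 days. The authors pooled 2 experiments into 1 merged library per condition, which leaves no replicates to compare, and an effect of tamoxifen itself and the loss of Ronin cannot be told apart. The knockout library held 65276 PETs in 44328 pairs of anchors, and the control library 156097 PETs in 128267 pairs. Knockout PETs were therefore 41.8% of control PETs over the whole map.

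In ChIA-PET, chromatin bound by a protein is pulled down, the ends of DNA fragments held together are ligated, and each sequenced PET records 1 contact between a pair of sites. RNA Pol II gathers at the promoters of active genes and follows the gene body during elongation, so strongly transcribed genes can carry it over their whole length. Ronin (Thap11) is a zinc finger protein of the THAP family that binds promoters together with the cofactor Hcfc1 through a long conserved motif shared with Zfp143, and it is known for its role in the growth and pluripotency of ESCs.

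The gene targeted in the study lay in a broad anchor. The anchor chr8:108367245-108402893 (mm9, 35.6 kb) has 3 protein-coding starts and holds Nutf2, Cenpt and Thap11, the gene of Ronin. It had 46 PETs to 43 partner anchors in Ronin knockout ESCs and 109 PETs to 107 partners in control ESCs. These PETs are contacts of the whole interval and do not check the deletion of the floxed exons. Hcfc1 lay in a broad anchor with 25 PETs in knockout and 65 in control ESCs, and Zfp143 in one with 48 knockout and 159 control PETs. The knockout anchor at Zfp143 also overlapped another control anchor, whose PETs count there.

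The labelled cell type was checked against the anchors of marker genes. Of 7 ESC marker genes, 6 had a control anchor of any width at their start. None of 7 fibroblast markers and none of 4 primitive endoderm markers had one, and of 7 markers of differentiation 1 did (Eomes). No start of these markers lay in a broad anchor, although a broad anchor of 35.5 kb lay within the body of Esrrb, a transcription factor of ESCs, with 18 PETs in knockout and 66 in control ESCs. Anchors show contacts between RNA Pol II peaks and not expression.

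The 861 anchors held 34 exact copies of the Ronin-binding motif, a sequence of 15 bases, in 32 anchors (3.72%). Of these copies, 28 lay within 500 bp upstream of a protein-coding start, and 29 within 500 bp of one on either side. The windows below are shown because the knockout deletes the factor that is known to bind this motif. They cover the anchors of Ronin and of Zfp143, which the study describes as an antagonist of Ronin. Also covered are anchors with few or many PETs left in the knockout, and the anchors with a pair of copies. Capitals mark the motif, and each window is printed 5′ to 3′ on the strand given, with mm9 positions.
Nutf2 and Thap11 anchor, chr8:108384416-108384470, + strand: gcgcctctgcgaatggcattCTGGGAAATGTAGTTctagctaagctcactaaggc
Ipo7 and Zfp143 anchor, chr7:117161697-117161751, - strand: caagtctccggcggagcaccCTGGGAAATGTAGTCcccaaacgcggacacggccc
Jarid2, chr13:44826075-44826129, + strand: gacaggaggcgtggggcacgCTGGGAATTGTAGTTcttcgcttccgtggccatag
Nup153, chr13:46823450-46823504, + strand: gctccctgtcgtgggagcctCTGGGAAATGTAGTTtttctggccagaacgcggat
Pa2g4, chr10:128003101-128003155, - strand: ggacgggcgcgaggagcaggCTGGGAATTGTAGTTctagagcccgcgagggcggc
Stk11 and Atp5d anchor, chr10:79604917-79604971, - strand: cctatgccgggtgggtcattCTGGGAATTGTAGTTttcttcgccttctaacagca
Lamtor2, chr3:88356871-88356925, + strand: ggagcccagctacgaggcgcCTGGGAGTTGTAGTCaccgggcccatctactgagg
Atp5j, chr16:84835548-84835602, + strand: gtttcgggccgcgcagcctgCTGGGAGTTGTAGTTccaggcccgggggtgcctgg
Phc1 and M6pr anchor, chr6:122258599-122258685, - strand: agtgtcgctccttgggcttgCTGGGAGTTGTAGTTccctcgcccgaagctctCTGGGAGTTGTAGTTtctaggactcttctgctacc
Ywhag, chr5:136410787-136410909, + strand: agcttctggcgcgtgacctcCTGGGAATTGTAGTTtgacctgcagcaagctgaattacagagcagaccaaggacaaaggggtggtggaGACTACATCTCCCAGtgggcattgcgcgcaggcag

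The motif sat close to the start of Jarid2, a subunit of Polycomb repressive complex 2, with its centre at -41 bp, and to that of Nup153, a nuclear pore protein, at -259 bp. In the Phc1 and M6pr anchor the copies lay on the same strand, 32 bp apart, upstream of M6pr, a receptor that carries enzymes to the lysosome. In the Ywhag anchor they lay on opposite strands, 68 bp apart, upstream of Ywhag, which codes for a 14-3-3 adaptor protein. A match is a run of letters and not a measured site of Ronin.

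The share of control PETs varied widely among anchors with a copy of the motif. The 32 anchors had 1348 PETs in knockout and 3352 in control ESCs, or 40.2% of control (95% exact interval 37.7% to 42.9%), against 36.1% (35.6% to 36.6%) for the 829 broad anchors without a copy. The intervals cover counting error only, since each condition is 1 library. Nup153 had the lowest share, with 17 PETs in knockout and 86 in control ESCs (19.8%), and the Stk11 and Atp5d anchor the highest, with 60 knockout and 89 control PETs (67.4%). The anchor of Atp5j, a subunit of mitochondrial ATP synthase, had 29 knockout and 46 control PETs, and the Lamtor2 anchor 98 knockout and 170 control PETs. The Stk11 and Lamtor2 anchors each lay under a knockout anchor that also overlapped another control anchor, whose PETs count there. At Lamtor2 the 98 knockout PETs are the same as those given below for Lmna. Such joined anchors were not left out of the 40.2% and 36.1%. When 1 mismatch was allowed, 127 anchors held a copy, and both they and the other 734 had 36.3% of control PETs.

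Copies of the motif were sparser per length in broad anchors than elsewhere, with 0.851 copies per Mb against 2.04 per Mb in the other 26896 anchors. Per anchor the order was the reverse, since 3.72% of broad and 1.0% of other anchors held a copy, and 2.93% of all control anchors with a protein-coding start did. The GC content was 43.7% in broad and 45.3% in other anchors.

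Broad anchors ranged in width from 30 to 162.5 kb with a median of 40.9 kb, while the median of all control anchors was 3278 bp. They covered 40.0 Mb, or 22.2% of the total anchor length, 246 of them reached 50 kb and 14 reached 100 kb. Another control anchor lay within 1 kb of 540 of them (62.7%), against 44.2% of the other anchors.

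A gene start lay in 776 broad anchors (90.1%), and a protein-coding start in 749 (87.0%), against 28.2% of the other anchors. Per length the order was the reverse, with 4.22 protein-coding starts per 100 kb in anchors of 30 to 50 kb and 3.02 in those of 50 kb or more, against 8.34 in anchors of 2 to 5 kb and 6.61 in those of 5 to 10 kb. At least 1 protein-coding gene lay whole within 549 of them (63.8%). At least 2 protein-coding starts were found in 387 (44.9%) and at least 5 in 35. The anchor with the most starts, 12 over 101.4 kb, holds P4hb (protein disulfide isomerase), Anapc11 (a subunit of the anaphase-promoting complex) and Mafg, with 86 PETs in knockout and 233 in control ESCs.

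In 229 broad anchors (26.6%), 1 protein-coding gene filled at least 80% of the interval. These 1-gene anchors had a median of 20 PETs in knockout and 54 in control ESCs, while anchors with at least 5 starts had a median of 44 PETs in knockout and 129 in control ESCs. In all, 102 anchors lay inside genes with no protein-coding start. One example is Gatad2a, a subunit of the NuRD complex, with 30 PETs in knockout and 97 in control ESCs over 73.5 kb. Only 10 broad anchors held no protein-coding gene, among them Dleu2, the host of a microRNA cluster, with 32 PETs in knockout and 61 in control ESCs.

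The widest anchors included those of several chromatin and RNA regulators. Trip12, a ubiquitin ligase, gave the widest one (chr1:84711518-84873997, 162.5 kb), with 82 PETs in knockout and 236 in control ESCs. Ankrd11, a chromatin cofactor, followed with 130.1 kb and had 70 knockout and 180 control PETs. Both had fewer PETs in the knockout library, at 34.7% and 38.9% of control. The knockout anchor at Trip12 also overlapped another control anchor, whose PETs count there.

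The 10 widest also included Jmjd1c, a member of the JmjC histone demethylase family, with 49 PETs in knockout and 151 in control ESCs. Tet1, which oxidizes 5-methylcytosine, had 44 knockout and 166 control PETs over 121.4 kb, and Jarid2 44 knockout and 160 control PETs over 102.2 kb. Elavl1, which codes for the RNA-binding protein HuR, had 70 knockout and 135 control PETs. Other wide anchors were those of Ctnna1 (alpha-catenin), with 40 knockout and 130 control PETs, of Fn1 (fibronectin) with 54 knockout and 148 control PETs, and of Cbfa2t2 and E2f1, with 87 knockout and 135 control PETs. The knockout share among the wide anchors named ran between 26.5% at Tet1 and 64.4% at Cbfa2t2. Like that of Trip12, the Cbfa2t2 anchor was met by a knockout anchor that also overlapped another control anchor, and the PETs of that neighbour count there.

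Anchors with the most PETs included those of histone genes and nuclear noncoding RNAs. The anchor of Hist1h1c and Hist1h1a (chr13:23826074-23863660, 37.6 kb) had 291 PETs to 253 partners in knockout and 792 PETs to 670 partners in control ESCs. It was also the densest, with 210.7 control PETs per 10 kb, whereas the median broad anchor had 5.59 PETs per 10 kb in knockout and 15.5 in control ESCs. The anchor of Malat1 and Neat1 (chr19:5789928-5854170), both long nuclear RNAs, had 222 PETs in knockout and 655 in control ESCs. Next came the histone anchor of Hist1h2ai with 202 knockout and 622 control PETs, and the anchor of Slc3a2 and the snoRNA host Snhg1 with 173 knockout and 472 control PETs. At the Hist1h1c and Slc3a2 anchors the knockout anchor also overlapped another control anchor, whose PETs count there.

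Other anchors rich in PETs were those of Hist1h2be with 164 PETs in knockout and 452 in control ESCs, Baz2a and Naca with 102 knockout and 334 control PETs, and Tex14 and Rad51c with 110 knockout and 331 control PETs. Naca codes for a subunit of the nascent polypeptide-associated complex and Rad51c for a factor of homologous recombination. The anchor of Hnrnpa2b1 and Cbx3, an hnRNP protein and a heterochromatin protein, had 97 knockout and 294 control PETs. At the poor end of the scale, the anchor of Eif3h, a subunit of translation initiation factor 3, had 6 PETs in knockout and 12 in control ESCs over 36.6 kb, or 3.28 control PETs per 10 kb.

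**Figure D1:**
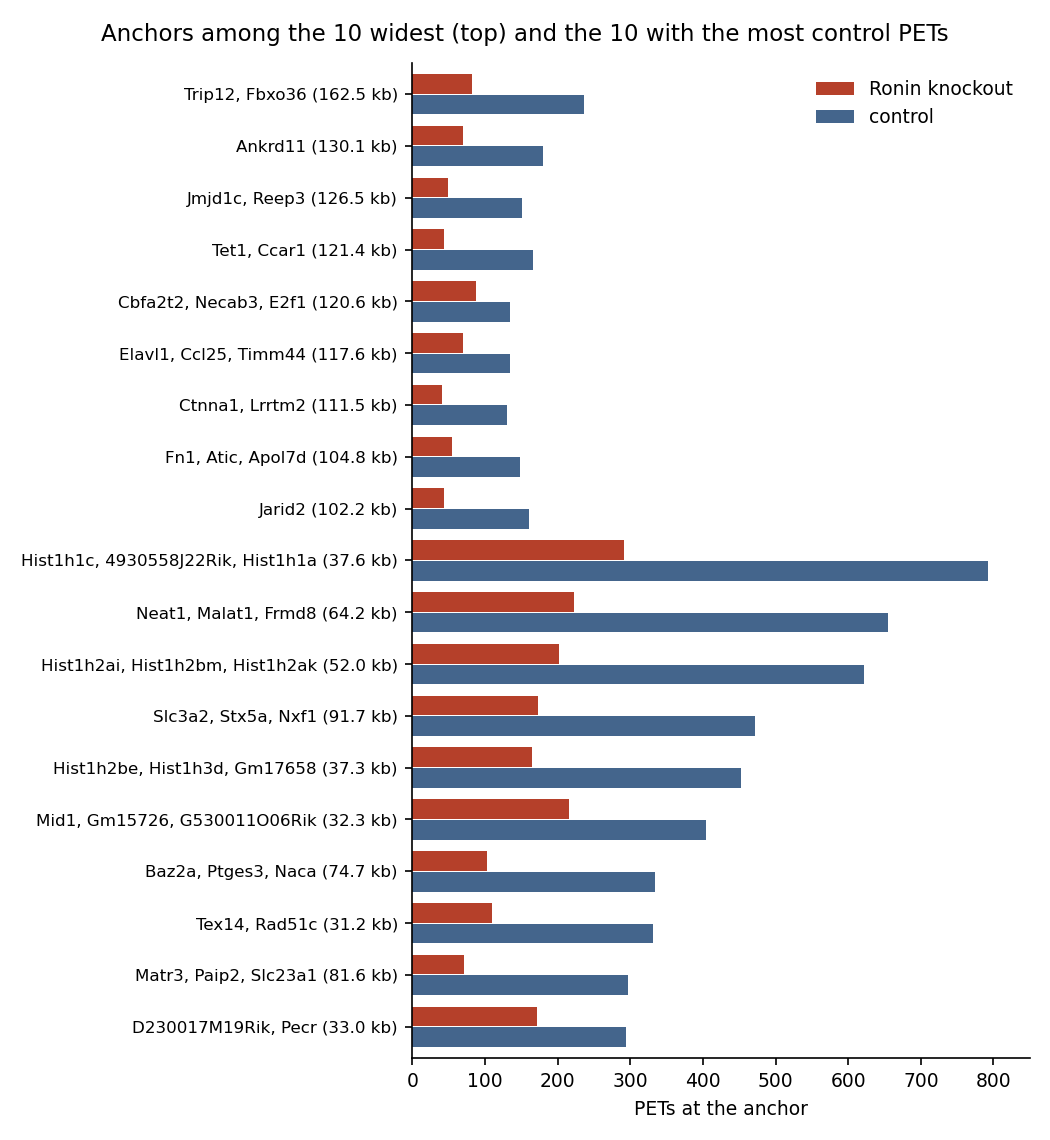
PETs (horizontal axis, number of PETs) at 9 of the 10 widest broad anchors (upper rows) and the 10 with the most control PETs (lower rows), in Ronin knockout (red) and control (blue) libraries, 1 merged library each, so there are no error bars. Each anchor shown had fewer PETs in the knockout library, and the histone anchor of Hist1h1c had the most in both, 291 in knockout and 792 in control ESCs.

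Most pairs counted at broad anchors crossed between chromosomes and rested on a single PET. The study left interchromosomal interactions of its Ronin map out of later analyses because of reported noise. It asked for several independent PETs per high-confidence interaction, so most pairs counted here fall below its limit. Partners on other chromosomes made up 89.3% of the PETs touching a broad anchor in knockout and 91.0% in control ESCs, against 77.1% of the PETs of other pairs in knockout and 79.4% in control ESCs. Of the pairs touching a broad anchor, 98.1% in knockout and 98.0% in control ESCs had 1 PET. Per broad anchor, the number of partners had a median of 24 in knockout and 66 in control ESCs, close to the median number of PETs, 25 in knockout and 68 in control ESCs.

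Within a chromosome, pairs touching a broad anchor spanned a median of 13787.9 kb in knockout and 19214.6 kb in control ESCs, longer than the 1086.0 kb (knockout) and 3631.1 kb (control) of other pairs. Pairs with at least 2 PETs were far shorter, with medians of 194.1 kb (89 pairs) in knockout and 95.8 kb (261 pairs) in control ESCs. The share of spans under 1 Mb was 32.6% in knockout and 25.5% in control ESCs. Broad anchors were an end of 40.8% of intrachromosomal pairs in knockout and 40.5% in control ESCs.

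PETs touching broad anchors numbered 22796 in knockout and 64541 in control ESCs, or 35.3% of control (95% exact interval 34.8% to 35.9%). PETs of pairs that touched no broad anchor numbered 42480 in knockout and 91556 in control ESCs, or 46.4% (45.9% to 46.9%). The intervals do not overlap, but they cover counting error only and compare 2 libraries, not the conditions. On the same chromosome the shares were 41.6% (39.7% to 43.7%) for broad anchors and 51.6% (50.3% to 52.9%) for other pairs, and between chromosomes 34.7% for broad anchors and 45.1% for other pairs. With pairs of at least 10 PETs left out, a choice made after seeing the data, the share was 34.6% (34.1% to 35.2%) for broad anchors and 34.8% (34.3% to 35.4%) for other pairs, and these intervals overlap.

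Nearly all single anchors had fewer PETs in the knockout library. Of the 861 broad anchors, 852 (99%) had fewer PETs in the knockout library and 9 had more, while 85.4% of all control anchors with at least 10 PETs in both libraries together had fewer. The knockout share had a median of 34.8% (quartiles 28.6% and 42.7%, range 0% to 235.8%), against 40.4% over all 8199 such anchors. It was under 50% at 744 broad anchors (86.4%) and at 58.3% of the other 7338. By chromosome, the summed share ran between 32.5% on chromosome 15 and 41.9% on chromosome 8.

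The knockout share was smaller at wider anchors. It was 78.2% for control anchors under 2 kb, 58.5% for 2 to 5 kb, 47.5% for 5 to 10 kb, 41.5% for 10 to 20 kb and 38.6% for 20 to 30 kb. Broad anchors gave 37.3% for 30 to 50 kb and 34.9% for 50 kb or more. Where anchors whose knockout anchor also overlapped another control anchor were left out, the same classes gave 55.3%, 38.0%, 37.5%, 35.9%, 35.8%, 33.6% and 33.5%. These classes count a narrow anchor with no knockout anchor at 0 knockout PETs. Over unjoined anchors that had a knockout anchor, and with pairs of fewer than 10 PETs, the shares were 55.8%, 53.3%, 39.6%, 35.1%, 34.7%, 33.2% and 33%. That filter kept 1351 of 7640 unjoined anchors under 2 kb but 466 of 467 of 30 to 50 kb. It picks narrow anchors by their knockout PETs, which raises their share. The order by width in this last set therefore cannot be read as a result.

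**Figure D2:**
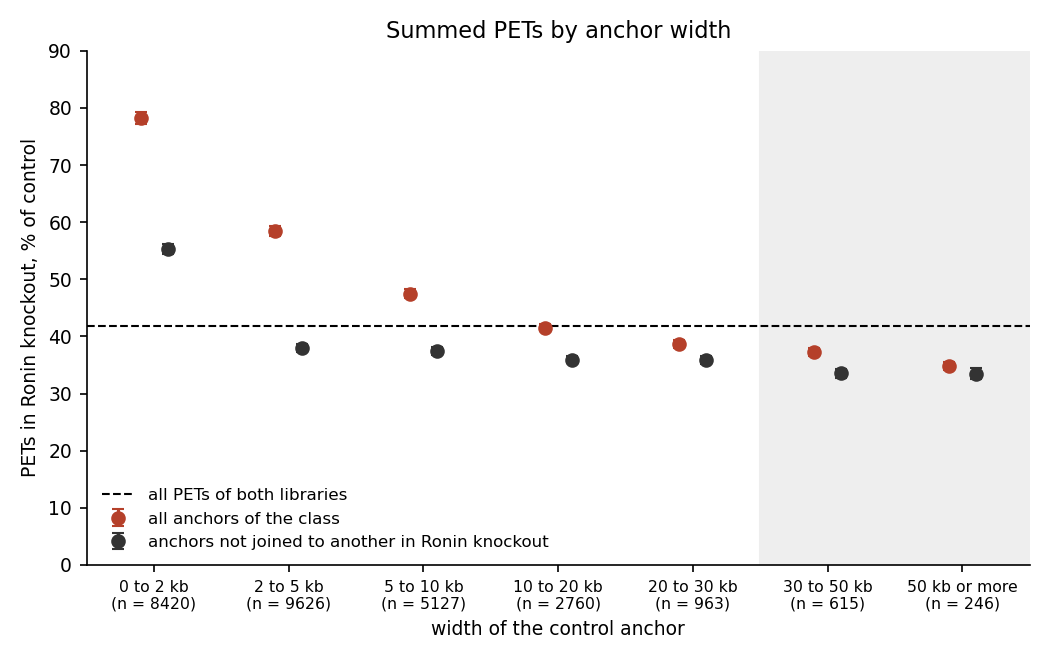
PETs in the Ronin knockout library as a percent of control (vertical axis) by the width of the control anchor (horizontal axis, kb), for all anchors of a class (red) and for anchors not joined to another in the knockout (dark). Bars are 95% exact intervals of counting error, the dashed line is the library-wide 41.8%, and the shaded classes are the broad anchors, at 37.3% and 34.9%.

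Each control anchor with at least 10 PETs in both libraries together was tested with a two-sided exact binomial test against the share of knockout PETs in both libraries, with Benjamini-Hochberg adjustment over all 8199 anchors. The test compares the 2 libraries, not the conditions, and an anchor is called lower or higher here relative to the 41.8% of the whole map. Of the broad anchors, 53 (6.16%) were lower in the knockout library at an adjusted p under 0.05, against 1.88% of all anchors tested. Another 20 (2.32%) were higher, against 10.1% of all anchors tested. Deep anchors are called more easily. Among anchors with at least 66 PETs in both libraries together, 48 of 650 broad anchors (7.38%) and 55 of 644 others (8.54%) were lower, and 20 broad anchors (3.08%) and 125 others (19.4%) were higher. So the share of lower calls at broad anchors was not above that of other anchors of such depth. The shares of higher calls cannot be compared in this way. Other anchors can reach the minimum mostly through knockout PETs, also those of a neighbour under the same knockout anchor. Of the 328 anchors under 2 kb that were tested, 223 (68.0%) were higher. The 10.1% over all anchors tested has the same limit.

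The count of lower anchors depended on the pairs with many PETs. With pairs of fewer than 10 PETs, tested against their own library ratio, 9 broad anchors were lower, against 0.285% of all anchors tested. Another 32 were higher, against 11%. Of the 32 higher anchors, only 6 were not joined to another control anchor in the knockout library. Of the 9 lower anchors, 8 were not joined. All 9 lower anchors were among the 53. They included Eif4b, Rpl24, Ifrd1, Bcat2, Myo10, Gm11019, the anchor of Rcc1 and Snhg3, and Matr3. With no scaling for the size of the libraries, 790 broad anchors were lower and 3 higher.

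**Figure D3:**
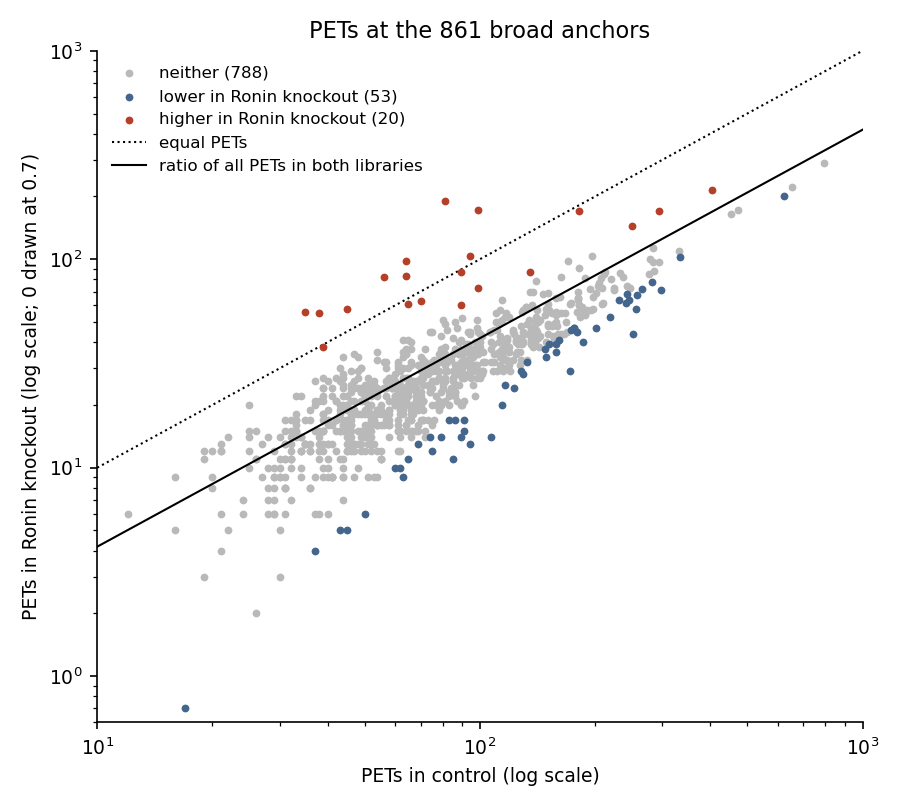
PETs at each of the 861 broad anchors in Ronin knockout (vertical axis, log scale) against control ESCs (horizontal axis, log scale), 1 merged library each. Blue points are the 53 anchors lower and red points the 20 anchors higher in the knockout library by the exact binomial test, the solid line is the library-wide ratio of 41.8% and the dotted line marks equal PETs, which 9 anchors exceed.

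The lower anchors described next were put in groups after their values were seen, and the groups were not tested. Eif4b, a cofactor of the helicase that unwinds messenger RNA, had 11 PETs in knockout and 85 in control ESCs (exact adjusted p = 6.23e-04). Rpl24, a protein of the large ribosomal subunit, had 20 knockout and 114 control PETs (exact adjusted p = 1.65e-03). Rfc4 and Eif4a2 shared an anchor with 64 knockout and 245 control PETs (exact adjusted p = 6.31e-03).

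Several lower anchors held genes of RNA-binding proteins. Matr3, a nuclear matrix protein, had 71 PETs in knockout and 297 in control ESCs in an anchor of 81.6 kb that also holds the snoRNA host Snhg4 (exact adjusted p = 1.76e-04). Ncl (nucleolin) had 67 knockout and 258 control PETs. Bclaf1 had 24 knockout and 123 control PETs, Rbm25 36 knockout and 158 control PETs, Sfpq 47 knockout and 176 control PETs, and the splicing factor Sf3a1 6 knockout and 50 control PETs. Tial1, a protein of stress granules, had 5 knockout and 45 control PETs. These anchors lay between 11.1% and 26.7% of control.

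The 3 lower anchors with the smallest adjusted p-values were those of Gm11019, Myo10 and Ifrd1. The anchor of Gm11019 (chr13:98244683-98293833), which holds no protein-coding gene, had 44 PETs in knockout and 251 in control ESCs (17.5%, interval 12.4% to 24.2%, exact adjusted p = 2.05e-07). An anchor of 79.2 kb inside Myo10, an unconventional myosin of filopodia, had 29 knockout and 172 control PETs (16.9%, interval 11% to 25.1%, exact adjusted p = 1.81e-05). Ifrd1 had 14 knockout and 107 control PETs (13.1%, interval 6.92% to 22.9%, exact adjusted p = 9.44e-05).

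Further lower anchors were those of Suz12, Bcat2, Atf1, Pkm2, and Paics with Ppat. Suz12, a core subunit of Polycomb repressive complex 2, had 40 PETs in knockout and 186 in control ESCs (exact adjusted p = 8.07e-04). Bcat2, the mitochondrial branched-chain aminotransferase, had 13 knockout and 94 control PETs (exact adjusted p = 4.51e-04). Atf1, a transcription factor of the CREB family, shared an anchor with Dip2b that had 14 knockout and 89 control PETs. Pkm2, a pyruvate kinase, had 25 knockout and 116 control PETs, and Paics and Ppat, which share an anchor and both act in purine synthesis, 28 knockout and 130 control PETs. Of the 32 anchors with the motif, 2 were lower and 1 was higher, against 6.16% lower and 2.32% higher of all broad anchors. The lower ones were Nup153 and Pa2g4, a proliferation-associated RNA-binding protein, with 34 knockout and 149 control PETs.

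The smallest shares rested on few PETs. Myst4, a histone acetyltransferase gene, had 2 PETs in knockout and 26 in control ESCs, and Kdm1a, which codes for a histone demethylase, had 3 knockout and 30 control PETs. Neither passed the test. An anchor inside C80913, away from its start, had 5 knockout and 43 control PETs and passed it. Pold3, a subunit of DNA polymerase delta, had 4 knockout and 37 control PETs and passed it too (exact adjusted p = 0.0447). An anchor inside Nav2 (chr7:56619332-56655776) was the only one with no knockout anchor, with 0 PETs against 17 in control ESCs (exact adjusted p = 0.0456), and its interval reached 24.2% of control.

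Of the 20 higher anchors, 16 lay under a knockout anchor that also overlapped another control anchor, and the PETs of those neighbours count there. The 9 anchors with more PETs in the knockout library were all of this kind. Hnrnpul2 had 173 PETs in knockout and 99 in control ESCs, and its knockout anchor is the one that also covers Slc3a2 and Snhg1, with the same 173 PETs. Lmna, the gene of lamin A and C, had 98 knockout and 64 control PETs, the anchor of Zfp668 and Vkorc1 56 knockout and 35 control PETs, Adrb3 82 knockout and 56 control PETs, and Tlk1 55 knockout and 38 control PETs. For Mreg and Pecr, neighbouring anchors in control ESCs, the same 171 knockout PETs stood against 182 control PETs at Mreg and 294 at Pecr. Further joined anchors among the higher ones were Mga with 58 knockout and 45 control PETs, the anchor of Rmnd5b and Nhp2 with 104 knockout and 94 control PETs, Zdhhc5 and Med19 with 63 knockout and 70 control PETs, Poldip2 with 38 knockout and 39 control PETs, and Ddhd2 with 73 knockout and 99 control PETs. Without joined anchors, 4 of 652 broad anchors were higher.

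The other 4 higher anchors, Mid1, Ankrd17, Pik3r2 and the anchor of Trp53inp1, each had a pair of at least 10 PETs in the knockout library. Mid1, a ubiquitin ligase gene on the X chromosome, had 216 PETs in knockout and 404 in control ESCs, of which 169 in knockout and 283 in control ESCs joined it to the next anchor, still within Mid1. Without that pair it had 47 knockout and 121 control PETs, or 38.8% of control. The anchor of Trp53inp1, a p53 response gene, had 145 knockout and 249 control PETs, of which 81 in knockout and 87 in control ESCs led to Ocel1 on chromosome 8, which left 64 in knockout and 162 in control ESCs.

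Pairs of at least 10 PETs in either library were found at 34 broad anchors, and for 23 of these the partner was on another chromosome. In each case the 2 anchors shared an identical stretch of sequence, of 44 to 338 bp with a median of 79.5 bp, and 30 shared at least 50 bp. Shared stretches under 100 bp were not looked for in pairs with fewer PETs. With all pairs that shared at least 100 bp left out, 28 broad anchors were lower and 21 higher. Tra2a, a splicing regulator, had the highest share of all, 191 PETs in knockout and 81 in control ESCs (235.8%), and 127 of the knockout PETs led to Lars2, a mitochondrial leucyl-tRNA synthetase, against 2 in control ESCs. With its pairs of at least 10 PETs left out, Tra2a had 27 knockout and 81 control PETs, or 33.3%. Tbc1d15 had 83 knockout and 64 control PETs in all, of which 70 in knockout and 33 in control ESCs led to Srrm2, and 13 knockout and 31 control PETs without that pair.

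Other such pairs had more PETs in the control library, as the 41.8% of the whole map would also give. The anchor of Slc25a40 and Dbf4 had 53 PETs to Sec24a in knockout and 120 in control ESCs, the anchor of Rcc1 20 knockout and 58 control PETs to Ppef2, and the anchor of Myl12b 1 knockout and 31 control PETs to Scaf8. By the mapping settings in the study's methods, reads with more than 1 best place in the genome were dropped. Whether reads that nearly fit more than 1 place have a part in these pairs was not tested. The other 827 broad anchors had a median share of 34.6%, close to that of all 861.

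A knockout anchor overlapped 860 of the 861 broad anchors (99.9%), and knockout anchors covered 96.4% of the broad length. An overlap of 1 bp is easily met by a wide interval, and the share of anchors overlapped was 53% for 2 to 5 kb, 83.8% for 5 to 10 kb, 97.7% for 10 to 20 kb and 99.8% for 20 to 30 kb. In 405 (47.0%), 1 knockout anchor covered at least 90% of the interval and no other control anchor. In 220 (25.6%) the interval was split over several knockout anchors, in 209 (24.3%) it was joined to another control anchor, and in 26 a single knockout anchor covered less than 90%. Ankrd17, which was split into 11 knockout anchors, was the most divided.

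The knockout share had a median of 33.3% in whole, 33% in split, 31.1% in narrowed and 42.7% in joined anchors. An anchor of at least 30 kb was present in the knockout library at 704 broad anchors (81.8%). In the knockout library 816 anchors reached 30 kb, with a widest of 164.0 kb, and 112 of these met no broad control anchor. Of those 112, 94 joined at least 2 control anchors. Of the 157 broad control anchors with no broad knockout anchor, 134 were met by at least 2 knockout anchors.

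**Figure D4:**
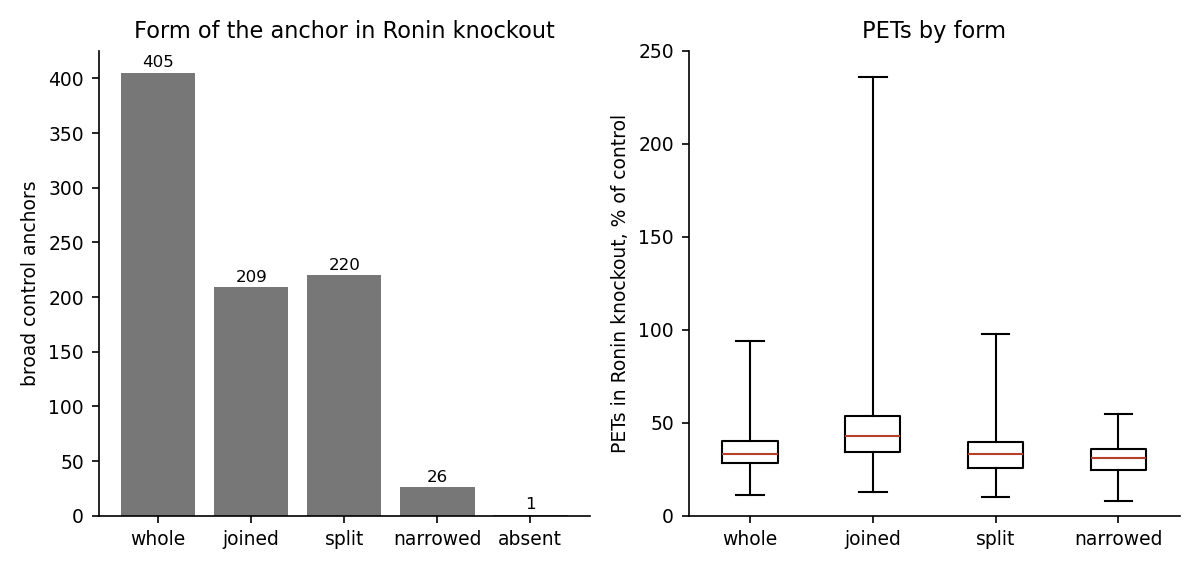
Left, number of the 861 broad control anchors (vertical axis) by their form in the Ronin knockout library. Right, PETs in the knockout as a percent of control by form, with the median (red), quartiles (box) and range (whiskers), which cover 405 whole, 209 joined, 220 split and 26 narrowed anchors, and the median was 42.7% in joined anchors and 31.1% to 33.3% in the others.

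Broad anchors were also linked with each other. In knockout ESCs 3808 pairs of 2 broad anchors were joined, and in control ESCs 10254, which is 2.77% of the 370230 possible pairs and of which 719 lay within a chromosome. Both libraries shared 278 of these pairs, or 7.30% of the knockout and 2.71% of the control pairs. Of the control pairs with 1 PET, 2.33% were found in the knockout library (231 of 9911), of those with 2 PETs 10.3% (31 of 301), of those with 3 or 4 PETs 34.4% (11 of 32) and of those with 5 or more 50% (5 of 10). Pairs seen more often in the control library were thus found more often in the knockout library. Because 26 broad anchors shared a knockout anchor with another broad one, a knockout pair there can count more than once.

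The pair of broad anchors with the most control PETs was that of Mreg and Pecr, 0.218 kb apart, with 0 PETs in knockout and 20 in control ESCs, and both lay under 1 anchor in the knockout library. The next pairs linked the histone clusters of chromosome 13. Hist1h2ai and Hist1h2be, 1800.1 kb apart, were joined by 8 PETs in knockout and 19 in control ESCs. Hist1h2ai and Hist1h1c, 1972.7 kb apart, had 10 knockout and 16 control PETs, and Hist1h2be and Hist1h1c, 135.3 kb apart, 7 knockout and 13 control PETs. Histone genes are near-identical copies, and each of the histone pairs shared a stretch of at least 100 bp. The study's mapping settings dropped reads with more than 1 best place. How far such stretches affect these counts was not tested. Across chromosomes, the anchors of Neb and Rif1 and of Ube2d3 were joined by 9 PETs in knockout and 10 in control ESCs. Those of Pecr and Cs were joined by 5 knockout and 7 control PETs. The same 5 knockout PETs also count for Mreg and Cs, which had 0 control PETs, since Mreg and Pecr lay under 1 knockout anchor.

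The share of genes that began in a broad anchor differed between gene lists. Over all protein-coding genes, 1487 of the 10596 with a control anchor at their start (14%) started in a broad one. The share was 43.8% for splicing factors (28 of 64), 41.0% for replication-dependent histones (25 of 61, in 4 anchors), 37.3% for translation factors (22 of 59) and 46.2% for nuclear noncoding RNAs and snoRNA hosts (6 of 13). It was 27.8% for glycolysis (5 of 18), 21.1% for chaperones (8 of 38) and 18.5% for cytosolic ribosomal proteins (15 of 81). It was 12.8% for pluripotency genes (5 of 39), 12.2% for the mitochondrial ribosome (9 of 74) and 9.51% for zinc finger genes (25 of 263). As a share of all annotated genes these 3 lists had 10.4%, 11.8% and 6.87%, against 6.64% of all protein-coding genes, so their order against all genes depends on the denominator. In lists with under 10 anchored genes, 0 of 3 pluripotency microRNAs and 0 of 6 ESC markers began in a broad anchor. In the list of Ronin and related genes 3 of 5 did, namely Thap11, Hcfc1 and Zfp143 but not the THAP genes Thap1 and Thap7. Members of a list can share an anchor, and the lists were not tested.

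**Figure D5:**
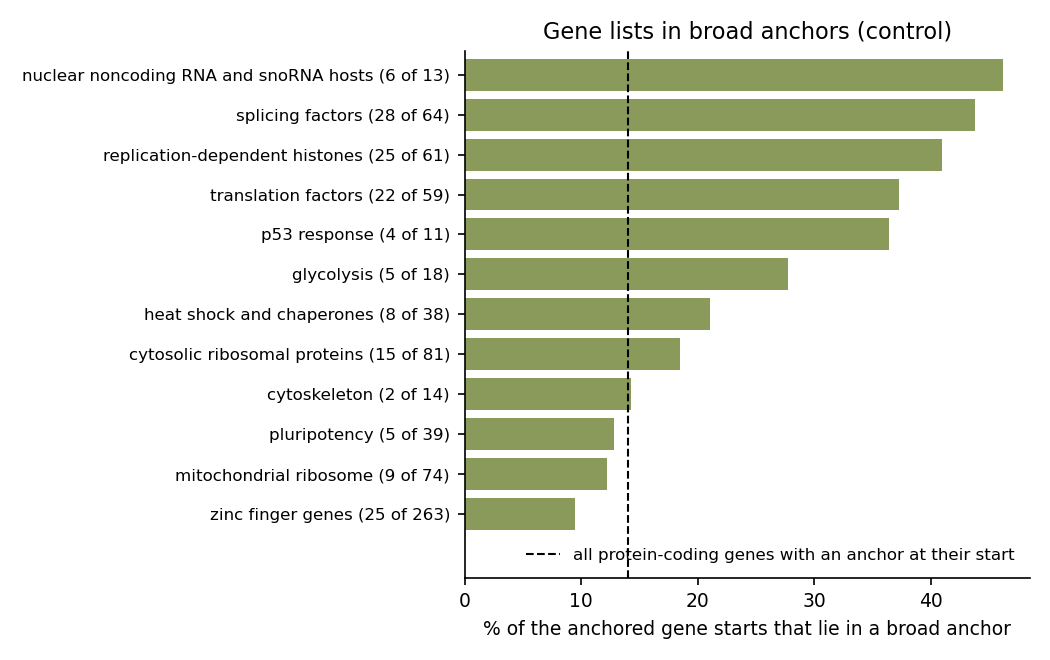
For each list with at least 10 such genes, percent of the genes with a control anchor at their start whose start lies in a broad anchor (horizontal axis), with the counts in brackets. The dashed line marks the 14% of all protein-coding genes, and the shares shown ran between 9.51% for zinc finger genes and 46.2% for nuclear noncoding RNAs and snoRNA hosts.

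The splicing factors with a broad anchor included the hnRNP genes Hnrnpk, with 49 PETs in knockout and 156 in control ESCs, Hnrnpu with 73 knockout and 224 control PETs, and Hnrnpc with 59 knockout and 185 control PETs. Among SR proteins, Srsf3 had 71 knockout and 224 control PETs and Srsf1 44 knockout and 163 control PETs. Over the 28 anchors of the list, 1 was lower (Sf3a1) and 1 higher (Hnrnpul2), against 6.16% lower and 2.32% higher of all broad anchors, and the median share was 32.8%, against 34.9% over all broad anchors with a protein-coding start.

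Translation factors with a broad anchor numbered 22, with a median share of 32.2%, 3 lower and none higher, against 6.16% lower and 2.32% higher of all broad anchors. Eif4a1, a helicase of translation initiation, had 61 PETs in knockout and 208 in control ESCs. The lower ones were Eif4b, Eif4a2 and Eif2s2, whose anchor, shared with Raly, had 64 knockout and 231 control PETs. Cytosolic ribosomal protein genes lay in 14 anchors, with a median of 29.5% and 3 lower, against the same 6.16%. Rpl4 had 39 knockout and 136 control PETs. Of the 8 chaperone anchors none passed the test, against 6.16% lower and 2.32% higher of all broad anchors. Hspa9, a mitochondrial chaperone, had 97 knockout and 284 control PETs, and Hsp90aa1 54 knockout and 188 control PETs.

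In the p53 response list, 4 of 11 anchored genes began in a broad anchor, with a median share of 48.3%. Of these 1 was higher and none lower, against 2.32% higher and 6.16% lower of all broad anchors. The higher one, that of Trp53inp1, had 39.5% of control without its pair to Ocel1, which the median of 48.3% includes. With pairs under 10 PETs the Trp53inp1 anchor was not called, and that of Ddit3 was higher. Besides Trp53inp1, Ddit3 had 64 PETs in knockout and 114 in control ESCs, Sesn2 57 knockout and 141 control PETs, and Ccng1 51 knockout and 144 control PETs. Ddit3 codes for a stress-induced transcription factor and Ccng1 for cyclin G1. Among the glycolysis genes, Gapdh had 58 knockout and 149 control PETs, Eno3 40 knockout and 112 control PETs, and Slc2a1, a glucose transporter, 23 knockout and 68 control PETs. Of the 5 anchors of this list 1 was lower, that of Pkm2, and none higher, against 6.16% lower and 2.32% higher of all broad anchors. Noncoding RNA genes included Malat1 and Neat1 in 1 anchor, Snhg1, Snhg3 and Snhg4, and 2 of the 5 anchors of this list were lower, those of Snhg3 and Snhg4, against 6.16% of all broad anchors and 1.88% of all anchors tested.

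Most pluripotency genes had narrower anchors. The 5 that began in a broad one were Tet1 and Jarid2, Rif1 with 28 PETs in knockout and 101 in control ESCs, Tcfcp2l1 with 20 knockout and 75 control PETs, and Klf5 with 15 knockout and 43 control PETs. Their shares lay between 26.5% and 34.9%. None of the 5 passed the test, against 6.16% lower and 2.32% higher of all broad anchors. Several others lay just below 30 kb, at 29726 bp for Sall4, 29595 bp for the Mir290 cluster, 29051 bp for Utf1 and 28209 bp for Sox2. Nanog had an anchor of 24146 bp, Pou5f1 one of 9868 bp and Zfp42 one of 2799 bp.

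Anchors next to the width limit are given as a description. Just above it lay Epc1 (30049 bp), with 24 PETs in knockout and 47 in control ESCs, the anchor of 2510006D16Rik and Ccdc28b with 15 knockout and 25 control PETs, and Ncl with 67 knockout and 258 control PETs. Just below it lay Slc38a1 (29994 bp) with 19 knockout and 49 control PETs, the anchor of the chaperonin genes Hspd1 and Hspe1 (29991 bp) with 36 knockout and 91 control PETs, and Atf2 (29990 bp) with 11 knockout and 18 control PETs.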

How the data were processed

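Per the submitters' processing notes and the study's methods, the authors trimmed linkers with cutadapt, mapped reads to mm9 with Bowtie 1.1.1, called peaks with MACS 1.4.2 and merged the 2 experiments of each condition. The deposited values were raw PET counts per pair of peaks. The authors also deposited a distance between peaks, a signed score in bp, and a p-value per intrachromosomal pair with its adjusted value, used only for distances and for an alternative. Depth was 65276 PETs in knockout and 156097 in control, or a knockout share of 29.5% of both, which was the null share of the test. Ratios have exact binomial 95% intervals.

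Genes came from GENCODE vM1 (models up to 2.5 Mb) and sequence from NCBIM37, searched for exact copies of the Ronin-binding motif on both strands. Where several copies matched, each was counted. Scripts ran under Python 3.11.15 (scipy 1.17.1, pysam 0.24.0, pandas 2.3.3, numpy 2.4.6), and the test was checked on simulated data. An anchor sum counts a PET between 2 broad anchors at both, the pooled sums once. At each of the 209 joined broad anchors, also where the text does not say so, the knockout PETs include those of a neighbouring control anchor.

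The anchors named were the 10 widest, the 10 with most control PETs and most partners, the 5 lowest and 5 highest ratios among those of at least 20 PETs, called anchors (up to 20 per direction by adjusted p), the strongest pairs of broad anchors, the 3 on each side of 30 kb, and members of the gene lists. Other names, including called anchors beyond the first 20 and the anchors with the motif, were chosen after their values were seen. Some anchors that this rule names are not reported here. The members and lists were chosen with earlier results of these data known.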

Additional observations from a re-analysis of the deposited data

How the results depend on the processing

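With 1 merged library per condition, no result has a replicate check. No paired analysis was possible because each condition had 1 merged library. The sums stayed below control under each alternative, but some passed the library-wide 41.8%. With pairs under 10 PETs more broad anchors were higher than lower, 32 against 9. Among those not joined in the knockout library, 6 were higher and 8 lower. The summed PETs at broad anchors, 35.3% of control, became 35.9% with a width of at least 20 kb, 34.4% with 50 kb, 34.0% with anchors chosen in the knockout, 41.6% with intrachromosomal and 34.7% with interchromosomal pairs, 45.2% with intrachromosomal pairs of adjusted p under 0.05, 45.9% with pairs of at least 2 PETs, 34.6% with pairs under 10 PETs, 33.9% without joined anchors, 37.8% with knockout anchors within 5 kb and 34.4% with overlapping anchors merged. Scaled to equal totals it was 84.5%, and scaled to the study's totals of PETs over 5 kb 44.2%. The summed partners, 35.7% of control, became 36.3%, 34.7%, 32.5%, 41.6%, 35.2%, 47.3% and 32.3% under the first 7 of these settings, 33% without joined anchors, 39.5% with anchors within 5 kb and 34.0% with knockout midpoints inside. The 53 lower anchors became 3 (intrachromosomal), 35 (interchromosomal), 4 (intrachromosomal, adjusted p under 0.05), 28 (without pairs sharing an identical stretch), 9 (pairs under 10 PETs), 790 (no scaling), 674 (study totals), 25 (merged anchors) and 29 (no minimum of PETs). The 20 higher anchors became 2 (intrachromosomal), 3 (intrachromosomal, adjusted p under 0.05), 8 (at least 2 PETs), 32 (pairs under 10 PETs), 4 (without joined anchors), 3 (no scaling), 8 (study totals), 57 (within 5 kb), 9 (midpoints inside) and 2 (merged anchors). Fewer anchors reach the minimum among intrachromosomal pairs (348 broad). The cause of the other changes was not tested. Of 23 alternatives for the other 6 results, 12 stayed within the spread between anchors or the interval and 11 did not. The settings without joined anchors and with pairs under 10 PETs were chosen after seeing the data.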

Other observations

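Of the snoRNA genes with a control anchor at their start, 123 of 345 (35.7%) lay in a broad anchor, and of the microRNA genes 63 of 296 (21.3%), against 91 of 697 lincRNA genes (13.1%) and 14% of protein-coding genes. As a share of annotated genes the values were 7.93% for snoRNA, 3.99% for microRNA, 7.15% for lincRNA and 6.64% for protein-coding genes, so microRNA genes were above protein-coding genes on the first scale and below them on the second. The snoRNA genes lay in 65 anchors with a median of 39 PETs in knockout and 110 in control ESCs, the microRNA genes in 51 anchors with medians of 30 in knockout and 83 in control ESCs, and the lincRNA genes in 85 anchors with medians of 29 in knockout and 85 in control ESCs. Most snoRNAs are made from introns of host genes, and several share 1 anchor. The median share was 35.3% for snoRNA and for microRNA anchors and 36.1% for lincRNA anchors, near the 34.8% of all broad anchors.

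Broad anchors were found on 20 chromosomes, with the most, 80, on chromosome 11 and the fewest, 18, on the X chromosome. On chromosome 7, 11 of 67 broad anchors were lower in the knockout library, and none of 31 on chromosome 14, of 29 on chromosome 19 and of 18 on the X chromosome was, against 6.16% of all broad anchors. Counts per chromosome are small and were not tested. An anchor with no annotated gene (chr3:90087835-90131817) had 15 PETs in knockout and 67 in control ESCs.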
